A study of Mus musculus with 12 samples.

Results

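The response of mouse fibroblasts to repeated hydrogen peroxide was followed across the whole transcriptome, with most of the account given to genes outside the usual senescence programmes. The comparison used 6 of the 12 libraries of the series, chosen by their labels: 3 libraries of peroxide-treated cells and 3 of the vehicle cells of the same experiment. All groups came from a single primary fibroblast line (MMF) taken out of the mammary fat of a B6 mouse described as healthy, with no altered allele named, so all libraries share 1 genetic source. The peroxide group was exposed to 750 uM hydrogen peroxide for 2 h, given 48 h to recover, taken through this cycle 3 times in all and lysed on day 6. The vehicle group received water and, per the labels, was split routinely. Passaging and density thus went along with treatment, and the 3 cannot be told apart. The other 6 libraries, used for the shared estimate of spread and for 1 comparison below, are cells given 100 nM doxorubicin for 24 h, lysed on day 7, and their own water vehicle. Whether the replicates were separate cultures is not stated, so the spread behind each p-value may be technical.

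Hydrogen peroxide is a small oxidant that crosses membranes, oxidises thiols and, with iron, damages DNA. Cells that survive repeated doses can leave the cell cycle for good while staying metabolically active, a state called stress-induced premature senescence. Its best known features are cell-cycle inhibitors, a secreted inflammatory mixture, enlarged lysosomes and loss of proliferation genes. Less attention is usually given to guidance receptors, ion channels, intermediary metabolism and the machinery that makes and exports RNA.

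Expression is given as CPM (reads of a gene per 1e+06 reads assigned to genes). Estimated depth was 22.2, 32.4 and 21.4 M (1e+06) reads in peroxide replicates 1 to 3 and 17.6, 20.99 and 17.3 M reads in vehicle replicates 1 to 3. The value of 3 reads, used as a floor, ranged over the libraries from 0.0927 to 0.173 CPM and covers counting error only. Values after ± are SE for log2 differences, which are on the log2(CPM + 1) scale and understate changes of low genes, and SD (n = 3) for CPM. A gene is said to have risen or fallen where its adjusted p was below 0.05. All 12 fibroblast defining markers passed the filter for testing, with a summed level of 10525 to 12013 CPM in the peroxide libraries and 7834 to 9374 CPM in the vehicle libraries. Of the 12, Lum was at 5.41, 3.06 and 4.39 CPM with peroxide and at 0.0569, 0 and 0.231 CPM in the vehicle libraries, the first 2 of which are under the floor. Of 16 epithelial markers 7 were at 0 in all 6 libraries and only Krt19 was tested, at 38.8 ± 19.9 CPM with peroxide and 176 ± 7.39 CPM without (SD, n = 3), so that the summed level was 18.7 to 58.6 against 168 to 181 CPM. Leukocyte markers summed to 24.5 to 28.7 against 17.4 to 18.1 CPM, with 2 of 16 at 0 and 12 at 1 CPM or less in all 6 libraries. Of the 4 tested, Lyz2 (log2 difference 2.35) and Cd68 (0.68) rose, Csf1r (-0.57) fell and Coro1a was not called. Endothelial markers summed to 26.8 to 33.8 against 10.1 to 14.7 CPM, with 2 of 12 at 0 and 9 at 1 CPM or less in all 6 libraries. Of the 3 tested, Tek rose, at 24.9 CPM with peroxide and 7.34 CPM without, and Egfl7 and Flt1 were not called. Adipocyte markers summed to 2170 to 2248 against 1238 to 1434 CPM, of which most was Lpl, a lipase that fibroblasts also make, and of the 6 tested 2 rose and 4 fell. Pericyte and Schwann cell markers summed to 53.6 to 64.8 against 38.5 to 40.9 CPM. Of the 6 tested, S100b (log2 difference 1.73) and Notch3 (1.26) rose, Cspg4 (-1.90) fell and 3 were not called. The part of these cells in the results was not tested. In bulk RNA, fewer cells expressing a gene and less RNA per cell cannot be told apart.

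The libraries of a group were not equally alike. Principal components 1 and 2 carried 52.8% and 23.7% of the variance. On component 2, peroxide replicate 2 scored 48.2 against 16.8 and 14.2 for the other peroxide libraries, and doxorubicin vehicle replicate 3 scored 37.8 against 6.67 and 5.21 for the others of its group. The vehicle libraries of the peroxide experiment scored -33.6, -18.9 and -7.06, and doxorubicin replicates 1 to 3 scored 0.0133, -39.9 and -29.5. In peroxide replicate 2 and doxorubicin vehicle replicate 3, 458 genes stood at 0.5 or less of the mean of the other libraries of the group in both, while 11 genes stood at 2 times the mean or more in both. These 458 genes were 3.45% of all tested genes. Of them, 150 were among the 3101 genes lower with peroxide (4.84%) and 10 among the 3632 higher ones (0.275%). Among genes moving by at least 1 log2 unit, the set made up 141 of the 875 falls (16.1%) and 6 of the 973 rises (0.617%). The set was chosen in part by a low peroxide library, which lowers its peroxide means. Vehicle replicate 1 was the highest of the 3 vehicle libraries for 64.2% of the 458 genes, against 36.9% of all tested genes. Their median log2 difference between peroxide and vehicle was -0.93 with all libraries and -0.44 without peroxide replicate 2. Their median GC content was 53.3% and that of the other tested genes 49.1%, and its part in these values was not tested. Genes of this set are named as such where they appear, as "low in both libraries", with their value without peroxide replicate 2.

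**Figure D1:**
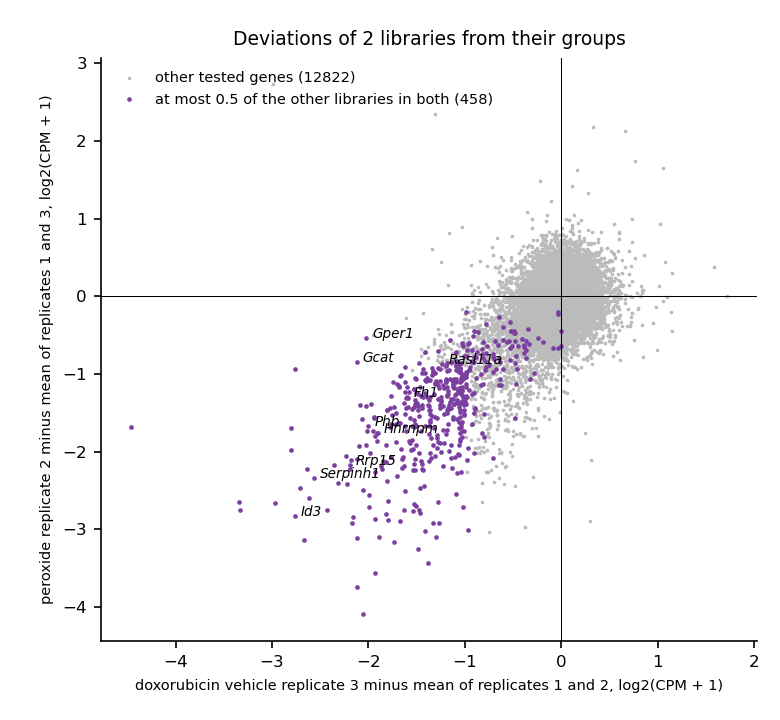
Each point is a tested gene, placed by how far doxorubicin vehicle replicate 3 (x axis) and peroxide replicate 2 (y axis) lie from the mean of the other libraries of their groups, in log2(CPM + 1). The 458 genes at 0.5 or less of the other libraries in both are drawn in purple and fall to the lower left, and the other tested genes centre near 0.

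Peroxide moved about as many genes up as down. Of the 13280 genes that reached 1 CPM in 3 or more of the 12 libraries, 6733 (50.7%) differed between peroxide and vehicle at an adjusted p below 0.05 (limma, Benjamini-Hochberg). Of these 3632 (27.3%) rose and 3101 (23.4%) fell. By at least 1 log2 unit, 973 genes (7.33%) rose and 875 (6.59%) fell, and by at least 2 units 192 rose and 81 fell. Most of the response was small, with 72.6% of the changed genes moving by under 1 log2 unit. The median difference over all tested genes was -0.01 log2 units. Lists of the usual senescence programmes (interferon response, secreted factors, p53 targets, proliferation, cholesterol synthesis, matrix and lysosome) held 767 tested genes, of which 641 (83.6%) were called. Of the 12513 tested genes outside those lists, 6092 (48.7%) were called. Genes outside the lists made up 94.2% of the tested genes, 90.5% of the called genes and 76.6% of those moving by at least 1 log2 unit, so the usual lists held more than their share of the calls. Without peroxide replicate 2, 5843 of the 6733 genes were still called, and 0 of them with the opposite sign.

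**Figure D2:**
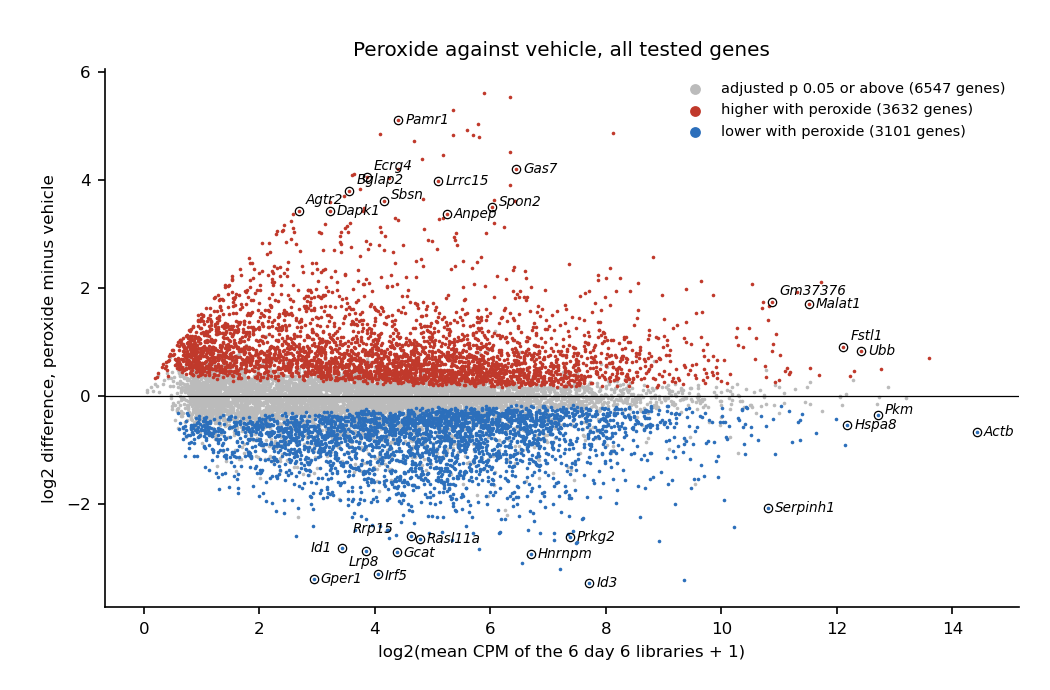
Log2 difference between peroxide and vehicle (y axis) against the mean level of the 6 day 6 libraries as log2(mean CPM + 1) (x axis) for 13280 tested genes. Red points are the 3632 genes that rose, blue points the 3101 that fell and grey points the rest. Circles and names mark the 20 genes with the largest differences and the 8 with the largest gain or loss of CPM. Both sets follow the naming rule and lie outside the usual lists.

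The largest rises outside the usual lists were mostly in genes of secreted and cell-surface proteins, none of them above 10.3 CPM in a vehicle library. Pamr1, a secreted protease-like protein named for muscle regeneration (ENSMUSG00000027188, chromosome 2, 102550010 to 102643040, plus strand, mm10), was measured at 0.0569, 0.238 and 0.289 CPM in the vehicle libraries and 34.9, 45.6 and 40.3 CPM in the peroxide libraries. The first vehicle value is under the floor of 3 reads, and Pamr1 rose by 5.11 ± 0.15 log2 units (adjusted p = 2.01e-09). Gas7, a growth-arrest-specific protein that binds actin (ENSMUSG00000033066, chromosome 11, 67455437 to 67688990, plus strand), was at 8.02, 6.81 and 9.13 CPM in the vehicle libraries and 154, 174 and 164 CPM in the peroxide libraries. All of its peroxide libraries were more than 10 times any vehicle library, and it rose by 4.21 ± 0.10 log2 units (adjusted p = 7.61e-10). Ecrg4, which encodes the secreted peptide precursor augurin, was at 0.625, 0.619 and 0.694 CPM in the vehicle libraries and 26.4, 27 and 26.2 CPM in the peroxide libraries. The libraries of each group were nearly equal, and the gene rose by 4.06 ± 0.16 log2 units. Lrrc15, a leucine-rich repeat membrane protein known from activated fibroblasts, was at 3.07, 3.43 and 2.72 CPM in the vehicle libraries and 62.7, 65 and 62.6 CPM in the peroxide libraries and rose by 3.99 ± 0.17 log2 units. Spon2, a secreted spondin of the extracellular matrix, was at 10.3, 7.96 and 10.3 CPM in the vehicle libraries and 98.2, 145 and 113 CPM in the peroxide libraries. The groups were far apart although peroxide replicate 2 was highest, and Spon2 rose by 3.5 ± 0.17 log2 units. Anpep, the surface peptidase aminopeptidase N (CD13), was at 5.63, 5.38 and 5.95 CPM in the vehicle libraries and 61.9, 75.7 and 67.5 CPM in the peroxide libraries and rose by 3.38 ± 0.12 log2 units.

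The next of these genes have roles in bone, skin, hormone signalling and cell death. Bglap2, a gene for the bone protein osteocalcin, was at 0.512, 0.513 and 0.688 CPM in the vehicle libraries and 19.5, 22.4 and 21.2 CPM in the peroxide libraries and rose by 3.81 ± 0.11 log2 units. It shares 88.2% of its 50-base sequence windows with transcripts from elsewhere, so its reads cannot be assigned with certainty between the osteocalcin copies. Sbsn, which encodes the secreted epidermal protein suprabasin, was at 1.75, 1.15 and 2.24 CPM in the vehicle libraries and 29.1, 35.1 and 31.6 CPM in the peroxide libraries and rose by 3.62 ± 0.20 log2 units. Agtr2, the type 2 receptor of angiotensin II, was at 0.0569, 0 and 0.173 CPM in the vehicle libraries and 11.1, 8.93 and 12.2 CPM in the peroxide libraries. The vehicle values were at or under the floor of 3 reads, so the fitted rise of 3.44 ± 0.23 log2 units depends on the pseudocount. Dapk1, a calcium-regulated kinase that promotes cell death, was at 0.625, 0.715 and 0.405 CPM in the vehicle libraries and 15.7, 17.4 and 15.3 CPM in the peroxide libraries and rose by 3.44 ± 0.18 log2 units. In all 10 of these genes the groups did not overlap, as the naming rule requires. The background for that is wide, since 59.9% of all tested genes had groups that did not overlap.

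The largest falls were led by regulators of transcription and signalling, and 6 of the 10 were low in both libraries. Irf5, an interferon regulatory factor, was at 37.5, 30.7 and 19.7 CPM in the vehicle libraries and 1.94, 1.74 and 2.32 CPM in the peroxide libraries. All peroxide values were near 2 CPM and it fell by 3.29 ± 0.26 log2 units (adjusted p = 1.58e-06). Lrp8, the reelin and apolipoprotein E receptor, was at 24.3, 24.5 and 24.3 CPM in the vehicle libraries and 3.43, 2.1 and 2.06 CPM in the peroxide libraries and fell by 2.87 ± 0.16 log2 units (adjusted p = 1.15e-07). The vehicle libraries were nearly identical for this gene. Prkg2, a membrane-bound kinase activated by cyclic GMP, was at 310.03, 275 and 269 CPM in the vehicle libraries and 46.7, 38.3 and 55.3 CPM in the peroxide libraries and fell by 2.59 ± 0.12 log2 units. Id1, which blocks basic helix-loop-helix factors and is a target of BMP signalling, was at 37.7, 10.7 and 6.88 CPM in the vehicle libraries and 1.35, 0.803 and 1.45 CPM in the peroxide libraries. The vehicle libraries spread widely, with replicate 1 far above the others, and Id1 fell by 2.81 ± 0.75 log2 units (adjusted p = 0.00928). With limma voom on estimated reads the Id1 call was lost. Irf5 shares 11% of its sequence windows with transcripts from elsewhere, so its values are less certain.

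Id3, a relative of Id1, was at 445, 441 and 233 CPM in the vehicle libraries and 51.6, 7.91 and 74.8 CPM in the peroxide libraries. Peroxide replicate 2 was the lowest library and vehicle replicate 3 the lowest of its group, yet the groups did not overlap. Id3 fell by 3.45 ± 0.83 log2 units (adjusted p = 0.00501), and its log2 difference was -2.51 (adjusted p = 0.0132) without peroxide replicate 2. Gper1, a G protein-coupled receptor of oestrogen, was at 18.6, 12.7 and 7.8 CPM in the vehicle libraries and 0.271, 0 and 0.654 CPM in the peroxide libraries. Its value in peroxide replicate 2 is under the floor of 3 reads. Gper1 fell by 3.38 ± 0.50 log2 units, and stood at -3.2 (adjusted p = 0.000869) without peroxide replicate 2. Hnrnpm, a splicing regulator, was at 292, 155 and 96.7 CPM in the vehicle libraries and 27.2, 8.71 and 37.3 CPM in the peroxide libraries. It fell by 2.91 ± 0.68 log2 units, and stood at -2.32 (adjusted p = 0.0153) without that library. Gcat, a mitochondrial enzyme of threonine breakdown, fell by 2.89 ± 0.50 log2 units, and stood at -2.61 (adjusted p = 0.00253) without it. Rasl11a, a small Ras-like GTPase, fell by 2.65 ± 0.42 log2 units, and stood at -2.36 (adjusted p = 0.00125). Rrp15, a factor of ribosomal RNA processing, fell by 2.58 ± 0.65 log2 units, and stood at -1.85 (adjusted p = 0.018). All 6 genes are low in both libraries. Hnrnpm shares 13.5% and Gcat 46.4% of their sequence windows with transcripts from elsewhere.

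**Figure D3:**
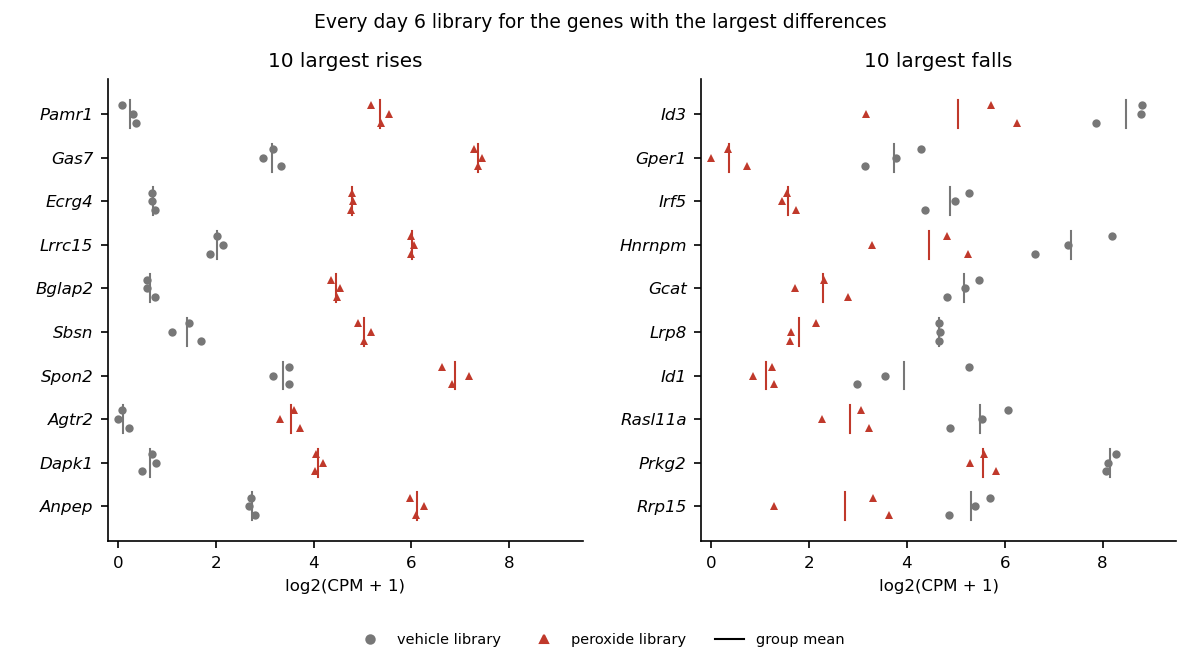
Each day 6 library as log2(CPM + 1) (x axis) for the 10 largest rises (left) and 10 largest falls (right), with grey circles for vehicle libraries, red triangles for peroxide libraries and vertical lines for group means. Libraries lie close together for the rises, while Id3, Hnrnpm, Id1 and Rrp15 spread among libraries of the same group.

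Measured as a share of all reads, the gains of called genes outside the usual lists were led by a nuclear RNA. Malat1, an abundant long non-coding RNA of nuclear speckles, was at 1483, 1361 and 1171 CPM in the vehicle libraries and 4697, 3127 and 5743 CPM in the peroxide libraries. It rose by 1.72 ± 0.20 log2 units (adjusted p = 3.35e-05), with peroxide replicate 2 the lowest of its group and still above all vehicle libraries. Gm37376, an overlapping gene model with all of its windows (100%) in other transcripts, moved with it from 858 ± 94.6 to 2911 ± 658 CPM, and reads of both models cannot be separated. Fstl1, a secreted follistatin-like glycoprotein, rose by 0.91 ± 0.07 log2 units from 3069 ± 142 to 5784 ± 228 CPM. Ubb, a polyubiquitin gene that shares 48.1% of its sequence windows with transcripts from elsewhere, rose by 0.84 ± 0.12 log2 units from 3912 ± 220.2 to 7061 ± 1352 CPM. Outside the usual lists, the losses were led by Actb, the cytoskeletal actin, which went from 26482 ± 1823 to 17481 ± 5497 CPM. It fell by 0.65 ± 0.19 log2 units (adjusted p = 0.0148), and stood at -0.37 (adjusted p = 0.00667) without peroxide replicate 2. Hspa8, the constitutive heat-shock chaperone, fell by 0.53 ± 0.07 log2 units, and Pkm, the pyruvate kinase of glycolysis, fell by 0.35 ± 0.07 log2 units. They share 39.4% and 25.8% of their sequence windows with transcripts from elsewhere. Serpinh1, the collagen chaperone HSP47, was at 3546, 2923 and 1894 CPM in the vehicle libraries and 960.4, 217 and 1259 CPM in the peroxide libraries. It fell by 2.07 ± 0.74 log2 units (adjusted p = 0.0364). It is low in both libraries, stood at -1.29 (adjusted p = 0.134) without peroxide replicate 2, and its call did not survive without peroxide replicate 2 or vehicle replicates 1 or 2 (adjusted p = 0.0875 to 0.134).

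Outside the usual programmes, 40 lists of pathway genes were examined. Lists of RNA handling, nuclear transport, nucleotide synthesis and mitochondrial gene expression had more falling than rising members. Lists of xenobiotic metabolism, lipid efflux, autophagy and vesicle coats had more rising than falling members. Shares of called members are read against 27.3% rising and 23.4% falling among all tested genes. A list whose shares are near these is no result about its members. Of the 16 lists with a median within 0.12 log2 units of 0, the median of 15 changed sign or moved by over 1.5 times when a single day 6 library was left out, so medians of that size are given as values without a direction.

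**Figure D4:**
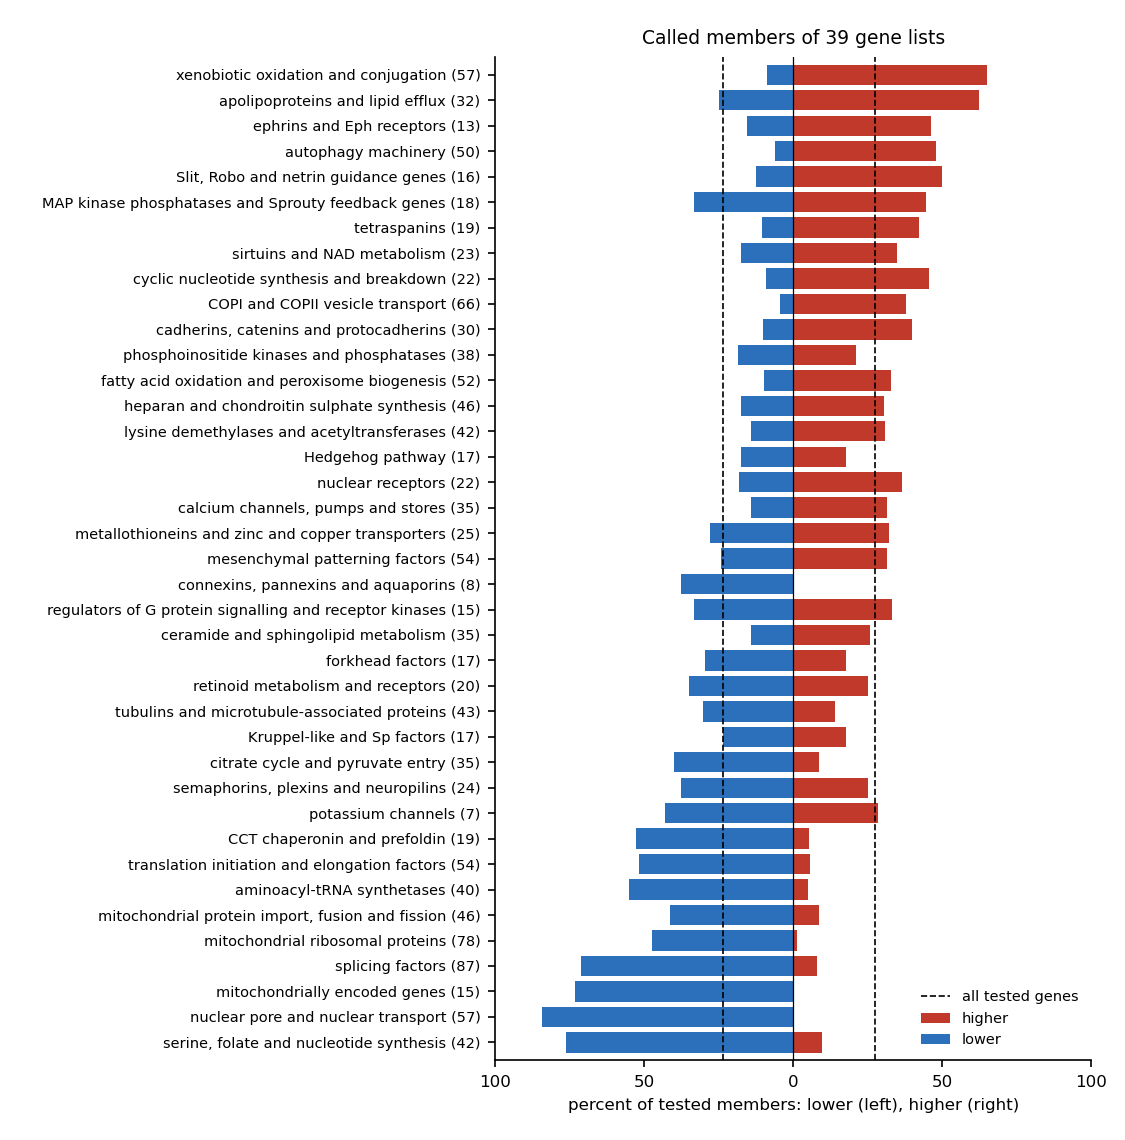
Percent of tested members of each of 39 of the 40 lists that rose (red, right) or fell (blue, left), ordered by the median log2 difference, with the number of tested members in brackets. Dashed lines mark all tested genes at 27.3% rising and 23.4% falling, and the 4 lists with the lowest medians (nucleotide synthesis, nuclear pore, mitochondrially encoded genes and splicing) have 71.3 to 84.2% of members falling.

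Guidance genes steer migrating cells and growing axons. Of the semaphorins, their plexin and neuropilin receptors, 6 of 24 tested genes rose and 9 fell (median log2 difference -0.20). Sema3c, a secreted semaphorin, rose by 3.02 ± 0.10 log2 units (adjusted p = 4.32e-09), going from 12.3 ± 1.11 to 107 ± 11.8 CPM. Plxnc1, a plexin receptor, rose by 0.92 ± 0.19 log2 units from 0.237 ± 0.241 to 1.33 ± 0.315 CPM. Nrp2, the co-receptor neuropilin 2, fell by 1.46 ± 0.11 log2 units from 64 ± 4.4 to 22.8 ± 3.23 CPM, and Sema3e, a ligand of plexin D1, fell by 1.4 ± 0.19 log2 units. Among ephrins and Eph receptors, 6 of 13 tested genes rose and 2 fell (median log2 difference 0.42), with a median of 0.26 without peroxide replicate 2. The receptor kinases moved apart, since Epha3 rose by 2.05 ± 0.24 log2 units and Epha4 rose by 1.47 ± 0.17 log2 units, while Epha2 fell by 0.87 ± 0.16 log2 units. The membrane-anchored ligand Efna5 fell by 0.47 ± 0.10 log2 units. Among Slit, Robo and netrin genes, 8 of 16 tested genes rose and 2 fell (median log2 difference 0.39). Netrin 1 (Ntn1) rose by 1.34 ± 0.23 log2 units from 1.37 ± 0.621 to 4.92 ± 0.921 CPM, and Rgmb, a BMP co-receptor of the repulsive guidance family, rose by 0.91 ± 0.14 log2 units. The netrin receptor Unc5b fell by 1.33 ± 0.13 log2 units from 141 ± 13.4 to 56.1 ± 12.7 CPM. The Slit receptor Robo1 fell by 0.35 ± 0.12 log2 units (adjusted p = 0.0357), a call lost without peroxide replicates 1 or 2 or vehicle replicates 1, 2 or 3 (adjusted p = 0.0529 to 0.137).

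The Hedgehog pathway is read out through genes that its Gli factors switch on, among them the receptor Ptch1 and the ligand-binding inhibitor Hhip. Ptch1 was at 9.04, 8.72 and 7.11 CPM in the vehicle libraries and 1.53, 1.08 and 1.82 CPM in the peroxide libraries. It fell by 1.91 ± 0.17 log2 units (adjusted p = 4.73e-06), with no overlap between groups. Hhip was at 2.39, 3.72 and 2.31 CPM in the vehicle libraries and 0.316, 0 and 0.140 CPM in the peroxide libraries and fell by 1.71 ± 0.17 log2 units. Its values in peroxide replicates 2 and 3 are at or under the floor of 3 reads. Gas1, a membrane protein that binds Hedgehog ligands, rose by 0.74 ± 0.13 log2 units. Over the whole list, 3 of 17 tested genes rose and 3 fell (median log2 difference 0.04), shares below those of all tested genes. Gas1 shares 17% of its sequence windows with transcripts from elsewhere.

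Among feedback genes of receptor signalling, MAP kinase phosphatases and Sprouty genes were called more often than all tested genes. Of 18 tested, 8 (44.4%) rose and 6 (33.3%) fell, against 27.3% and 23.4% of all tested genes (median log2 difference 0.31). Errfi1, an inhibitor of the EGF receptor, rose by 1.33 ± 0.09 log2 units (adjusted p = 6.65e-07), going from 14.7 ± 0.664 to 38.4 ± 1.49 CPM. Spry2, a brake on receptor tyrosine kinases, rose by 1.25 ± 0.21 log2 units. Dusp4, a phosphatase of nuclear MAP kinases, fell by 1.37 ± 0.20 log2 units. Dusp6, which inactivates ERK, fell by 1.59 ± 0.47 log2 units (adjusted p = 0.0158); it is low in both libraries, stood at -1.31 (adjusted p = 0.0567) without peroxide replicate 2, and its call did not survive without peroxide replicate 2 or vehicle replicate 1 (adjusted p = 0.0567 to 0.0684). Among regulators of G protein signalling and receptor kinases, 5 of 15 tested genes rose and 5 fell (median log2 difference -0.03). Rgs11 rose by 1.66 ± 0.22 log2 units and Rgs2 rose by 1.47 ± 0.13 log2 units, whereas Rgs4 fell by 1.32 ± 0.10 log2 units and the receptor kinase Grk2 fell by 1.11 ± 0.20 log2 units; the RGS proteins speed up the switching off of G alpha subunits. In cyclic nucleotide turnover, 10 of 22 tested genes rose and 2 fell (median log2 difference 0.23). The phosphodiesterases Pde3a and Pde1b, which break down cyclic nucleotides, rose by 1.22 ± 0.13 and 1.19 ± 0.19 log2 units. Npr3, the clearance receptor for natriuretic peptides, fell by 1.12 ± 0.21 log2 units, and the adenylyl cyclase Adcy1 fell by 0.55 ± 0.15 log2 units. Among phosphoinositide kinases and phosphatases, 8 of 38 tested genes (21.1%) rose and 7 (18.4%) fell (median log2 difference 0.09), shares below those of all tested genes. The regulatory subunit Pik3r3 rose by 1.21 ± 0.16 log2 units and the phosphatase Inpp5k rose by 1.19 ± 0.11 log2 units. The AKT phosphatase Phlpp1 fell by 1.36 ± 0.24 log2 units, and the catalytic subunit Pik3cd fell by 1.03 ± 0.17 log2 units. Pik3r3 shares 23.2% of its sequence windows with transcripts from elsewhere.

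Few potassium channel genes were expressed enough to test. Of that list, 7 of 64 genes were tested, and 2 rose and 3 fell. Kcne4, an accessory subunit, rose by 0.80 ± 0.09 log2 units from 127 ± 12.9 to 221 ± 16.5 CPM, and the beta subunit gene Kcnab2 rose by 0.80 ± 0.18 log2 units. Another beta subunit, Kcnab1, fell by 1.05 ± 0.11 log2 units. Kcnmb1, the beta subunit of the large-conductance calcium-activated channel, fell by 1.02 ± 0.21 log2 units, a call lost with a pseudocount of 0.1. For calcium channels, pumps and stores, 11 of 35 tested genes rose and 5 fell (median log2 difference 0.03), and without peroxide replicate 2, 9 rose and 1 fell. The count of falls was 3 without vehicle replicate 1 and 0 without vehicle replicate 2. The channel subunit Cacnb4 rose by 1.54 ± 0.18 log2 units and the plasma membrane calcium pump Atp2b4 rose by 1.47 ± 0.18 log2 units. The store pump Atp2a3 fell by 0.65 ± 0.20 log2 units (adjusted p = 0.0165), a call lost without peroxide replicate 2 or vehicle replicate 2 (adjusted p = 0.0624 to 0.0638). Cacnb4 shares 15% of its sequence windows with transcripts from elsewhere. Of connexins, pannexins and aquaporins 8 of 28 were tested, and 0 rose and 3 fell (limma). At an unadjusted p below 0.05, 1 rose, and with limma voom 0 rose. The water channel Aqp1 was at 115, 140.3 and 147 CPM in the vehicle libraries and 33.3, 50.8 and 27.7 CPM in the peroxide libraries and fell by 1.86 ± 0.17 log2 units (adjusted p = 5.67e-06). The connexin Gjc1 fell by 0.71 ± 0.20 log2 units. In metal handling, 8 of 25 tested genes rose and 7 fell (median log2 difference 0.02). Ccs, the copper chaperone of superoxide dismutase, rose by 1.14 ± 0.10 log2 units from 41.9 ± 2.94 to 94.1 ± 11.6 CPM, and the copper transporter Slc31a2 rose by 1.01 ± 0.10 log2 units. The zinc exporter Slc30a1 fell by 0.54 ± 0.12 log2 units, and metallothionein 1 (Mt1), a metal-buffering protein, fell by 0.52 ± 0.12 log2 units from 497 ± 33.7 to 348 ± 57.2 CPM.

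Genes that make nucleotides and their folate precursors fell together. Of 42 tested genes of serine, folate and nucleotide synthesis, 32 (76.2%) fell and 4 rose, with a median log2 difference of -0.86. Many of these enzymes serve DNA replication, and the proliferation genes of the usual lists fell in the same libraries, with 246 of 259 tested members lower. Tk1, the thymidine kinase of S phase, fell by 1.83 ± 0.12 log2 units (adjusted p = 4.16e-07), going from 255 ± 14.6 to 71.7 ± 14.5 CPM. Mthfd2, a mitochondrial folate enzyme, was at 639, 599.5 and 529 CPM in the vehicle libraries and 282, 63.2 and 334 CPM in the peroxide libraries. Peroxide replicate 2 was far below the others; Mthfd2 fell by 1.69 ± 0.50 log2 units (adjusted p = 0.0156), and stood at -0.93 (adjusted p = 0.00929) without that library. Adssl1, an enzyme of adenylate synthesis best known from muscle, rose by 1.39 ± 0.25 log2 units. The mitochondrial thymidine kinase Tk2 rose by 0.69 ± 0.21 log2 units (adjusted p = 0.0193), a call lost without peroxide replicates 1 or 2 or vehicle replicate 1 (adjusted p = 0.0708 to 0.076). In the citrate cycle and pyruvate entry, 3 of 35 tested genes rose and 14 fell (median log2 difference -0.20). Fumarase (Fh1) fell by 2.26 ± 0.54 log2 units (adjusted p = 0.00474), is low in both libraries and stood at -1.83 (adjusted p = 0.0181) without peroxide replicate 2. Mdh2, mitochondrial malate dehydrogenase, fell by 1.99 ± 0.76 log2 units (adjusted p = 0.048); it is low in both libraries, stood at -1.08 (adjusted p = 0.174) without peroxide replicate 2, and lost its call without peroxide replicates 1 or 2 or vehicle replicates 1, 2 or 3 or doxorubicin replicates 1, 2 or 3 or doxorubicin vehicle replicates 1 or 2 (adjusted p = 0.0503 to 0.174). Pdk2, an inhibitor of pyruvate dehydrogenase, rose by 0.84 ± 0.28 log2 units (adjusted p = 0.0252), a call lost without peroxide replicate 2 or vehicle replicates 1 or 2 (adjusted p = 0.0645 to 0.0946). The malic enzyme Me3 rose by 0.72 ± 0.21 log2 units (adjusted p = 0.0125), a call lost without vehicle replicate 3 (adjusted p = 0.0504).

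Lists of lipid metabolism differed in how their members moved. In fatty acid oxidation and peroxisome biogenesis, 17 of 52 tested genes rose and 5 fell (median log2 difference 0.09). The acyl-CoA dehydrogenases Acad11 and Acad12 rose by 1.66 ± 0.13 and 1.48 ± 0.13 log2 units, with Acad11 going from 9.8 ± 1.47 to 33.1 ± 3.87 CPM. Ppargc1b, a coactivator of mitochondrial genes, fell by 1.28 ± 0.18 log2 units. Etfa, which passes electrons from these dehydrogenases on, fell by 1.56 ± 0.51 log2 units (adjusted p = 0.0245), a call lost without peroxide replicate 2 or vehicle replicate 1 (adjusted p = 0.0841 to 0.103). Acad12 shares 17.3% of its sequence windows with transcripts from elsewhere. Of the apolipoprotein and lipid efflux genes, 20 of 32 tested (62.5%) rose and 8 fell, with a median log2 difference of 0.68, and 19 rose and 5 fell without peroxide replicate 2. Apod, a small lipid-binding lipocalin, was at 5.63, 5.05 and 5.61 CPM in the vehicle libraries and 57.8, 68.1 and 58.9 CPM in the peroxide libraries and rose by 3.28 ± 0.09 log2 units (adjusted p = 2.01e-09). Abca1, the cholesterol exporter, was at 7.56, 5.38 and 8.32 CPM in the vehicle libraries and 31.1, 31 and 36.1 CPM in the peroxide libraries and rose by 2.07 ± 0.14 log2 units (adjusted p = 3.84e-07). Scarb1, the receptor for high-density lipoprotein, fell by 1.19 ± 0.34 log2 units. In ceramide and sphingolipid metabolism, 9 of 35 tested genes rose and 5 fell (median log2 difference -0.03), shares near those of all tested genes. The receptor S1pr1 rose by 1.15 ± 0.18 log2 units and Ugcg, which glucosylates ceramide, rose by 1.01 ± 0.08 log2 units. The sphingomyelinase Smpd3 fell by 1.1 ± 0.18 log2 units and the desaturase Degs1, which forms ceramide, fell by 1.0 ± 0.23 log2 units.

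Enzymes that oxidise and conjugate foreign and reactive compounds rose more often than they fell. Of 57 tested genes 37 (64.9%) rose and 5 (8.77%) fell, with a median log2 difference of 0.75. Without peroxide replicate 2, 36 rose and 5 fell. Ces2g, a carboxylesterase, was at 0.227, 0.810 and 0.636 CPM in the vehicle libraries and 9.11, 10.1 and 10.4 CPM in the peroxide libraries and rose by 2.82 ± 0.16 log2 units (adjusted p = 1.15e-07). Adh1, an alcohol dehydrogenase that also oxidises retinol, was at 27.6, 27 and 29.5 CPM in the vehicle libraries and 91.6, 116 and 104 CPM in the peroxide libraries and rose by 1.85 ± 0.10 log2 units (adjusted p = 8.1e-08). Por, the reductase that feeds electrons to cytochromes P450, fell by 1.22 ± 0.15 log2 units from 284 ± 21 to 124 ± 31.6 CPM. Aldh9a1, an aldehyde dehydrogenase, fell by 1.88 ± 0.52 log2 units (adjusted p = 0.0111), is low in both libraries and stood at -1.31 (adjusted p = 0.0362) without peroxide replicate 2. The retinoid list was split, as 5 of 20 tested genes rose and 7 fell (median log2 difference -0.11). The retinoic acid binding proteins moved in opposite directions. Crabp2, which carries retinoic acid to the nucleus, was at 2.16, 1.86 and 3.53 CPM in the vehicle libraries and 22.7, 28.1 and 22.2 CPM in the peroxide libraries and rose by 2.87 ± 0.17 log2 units (adjusted p = 2.03e-07). Crabp1 was at 6.77, 6.48 and 5.78 CPM in the vehicle libraries and 1.17, 0.216 and 1.45 CPM in the peroxide libraries; it fell by 1.98 ± 0.30 log2 units, is low in both libraries and stood at -1.67 (adjusted p = 0.000505) without peroxide replicate 2. Rarres2, which encodes the chemoattractant chemerin, rose by 2.27 ± 0.15 log2 units, and the retinol dehydrogenase Dhrs9 fell by 0.71 ± 0.13 log2 units. Rarres2 shares 28.4% of its sequence windows with transcripts from elsewhere. In NAD metabolism, 8 of 23 tested genes rose and 4 fell (median log2 difference 0.28), with a median of 0.08 without peroxide replicate 1 and 0.17 without vehicle replicate 2. The NAD consumer Cd38 rose by 1.97 ± 0.18 log2 units (adjusted p = 4.69e-06), going from 0.404 ± 0.118 to 4.49 ± 0.248 CPM, and Nmnat2, which makes NAD in the cytoplasm, rose by 2.48 ± 0.16 log2 units from 1.41 ± 0.193 to 12.5 ± 2.12 CPM. Parp1, which spends NAD at DNA breaks, fell by 1.08 ± 0.18 log2 units. Nampt, the salvage enzyme that limits NAD supply, fell by 1.04 ± 0.33 log2 units (adjusted p = 0.0202), a call lost without peroxide replicate 2 or vehicle replicate 1 (adjusted p = 0.0748 to 0.0773).

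The machinery that exports and processes RNA fell across nearly the whole list of nuclear pore and transport genes. Of 57 tested genes 48 (84.2%) fell and 0 rose, with a median log2 difference of -0.61 (limma). Without peroxide replicate 2, 0 rose and 46 fell. At an unadjusted p below 0.05, 0 rose, and with limma voom 0 rose. Nup85, a scaffold nucleoporin, was at 122, 95.2 and 73 CPM in the vehicle libraries and 25.9, 16.1 and 29.7 CPM in the peroxide libraries and fell by 1.99 ± 0.33 log2 units (adjusted p = 0.00045). Nxt1, a partner of the messenger RNA exporter, fell by 1.95 ± 0.47 log2 units (adjusted p = 0.00487), is low in both libraries and stood at -1.4 (adjusted p = 0.011) without peroxide replicate 2. Because these genes moved together, their promoters were searched in RefSeq windows (GRCm38.p6), 250 bases before the start. Windows were at hand for 47 of the 57 genes and for 9687 tested genes. The palindromic site of the factor NRF1, its 10 letters shown in capitals in the stretches that follow and the same on both strands, was present for 5 of the 47 genes (10.6%) and for 1.89% of all tested genes with a window. Among all falling genes with a window it was present for 1.94%, close to that background. It was picked, after the shares were seen, from 8 motifs searched in 8 lists, and is a description without a test. The other motifs, on both strands, were the CCAAT box (CCAAT), the E-box (CACGTG), an ETS site (CCGGAAGT), the CHOP-ATF4 composite (TGATGCAA), the AP-1 site (TGANTCA), the antioxidant element core (TGACNNNGC) and the Gli site (GACCACCCA). The AP-1 and antioxidant element letters can match the same bases. The stretches that hold the NRF1 letters, in capitals, are as follows, 5′ to 3′ on the strand of the gene.
Ran (chr5:129019916-129019995, plus strand): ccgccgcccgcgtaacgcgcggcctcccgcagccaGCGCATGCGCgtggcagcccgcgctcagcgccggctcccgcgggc
Nup62 (chr7:44816008-44816087, plus strand): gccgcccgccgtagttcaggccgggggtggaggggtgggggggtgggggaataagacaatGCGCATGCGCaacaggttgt
Nup107 (chr10:117792726-117792805, minus strand): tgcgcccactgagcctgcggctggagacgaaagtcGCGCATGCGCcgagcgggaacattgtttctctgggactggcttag
Nup50 (chr15:84923253-84923342, plus strand): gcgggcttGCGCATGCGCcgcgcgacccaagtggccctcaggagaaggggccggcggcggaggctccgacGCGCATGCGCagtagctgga
Xpo5 (chr17:46202701-46202780, plus strand): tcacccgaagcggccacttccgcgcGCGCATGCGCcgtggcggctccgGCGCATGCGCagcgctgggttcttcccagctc
These 5 genes were named for the site, outside the naming rule. Ran, the GTPase that gives nuclear transport its direction, fell by 1.53 ± 0.08 log2 units (adjusted p = 7.68e-08), going from 1096 ± 17.9 to 381 ± 44.1 CPM. Nup62, a channel nucleoporin, fell by 1.37 ± 0.12 log2 units from 230.3 ± 15.5 to 89.5 ± 20.1 CPM, and Nup107, a scaffold nucleoporin, fell by 0.86 ± 0.08 log2 units. Nup50, which helps to release import cargo, fell by 0.39 ± 0.11 log2 units, and Xpo5, the exporter of microRNA precursors, fell by 0.45 ± 0.08 log2 units.

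Splicing and translation genes fell as well. Of the splicing factors, 7 of 87 tested genes rose and 62 fell (median log2 difference -0.51). Beside Hnrnpm, described above, Sf3b4, a subunit of the branch-site complex, fell by 2.41 ± 0.84 log2 units (adjusted p = 0.0324). It is low in both libraries, shares 45.3% of its sequence windows with transcripts from elsewhere, stood at -1.52 (adjusted p = 0.119) without peroxide replicate 2, and its call did not survive without peroxide replicate 2 or vehicle replicates 1 or 2 (adjusted p = 0.0832 to 0.119). Members that rose included Clk1, a kinase of SR proteins, which rose by 0.60 ± 0.11 log2 units, and Mbnl2, a muscleblind regulator of splicing, which rose by 0.53 ± 0.11 log2 units. Of translation initiation and elongation factors, 3 of 54 tested genes rose and 28 fell (median log2 difference -0.40). Eif5a, a factor that helps stalled ribosomes and carries hypusine, was at 835, 601 and 497 CPM in the vehicle libraries and 217, 218 and 219 CPM in the peroxide libraries and fell by 1.52 ± 0.27 log2 units (adjusted p = 0.00064). Eif1ax, which scans for the start codon, fell by 1.89 ± 0.48 log2 units (adjusted p = 0.00637), is low in both libraries and stood at -1.46 (adjusted p = 0.023) without peroxide replicate 2. Eif4g3, a scaffold of the cap-binding complex, rose by 0.44 ± 0.07 log2 units, and Eif3k, a subunit of eIF3, rose by 0.43 ± 0.09 log2 units. Of the aminoacyl-tRNA synthetases, which charge transfer RNAs, 2 of 40 tested genes rose and 22 fell (median log2 difference -0.43). Tars fell by 0.97 ± 0.17 log2 units (adjusted p = 0.000569), going from 407 ± 10.4 to 215 ± 60.7 CPM, and the mitochondrial Sars2 fell by 1.24 ± 0.32 log2 units; Sars2 is low in both libraries and stood at -0.96 (adjusted p = 0.0253) without peroxide replicate 2. Qars rose by 0.35 ± 0.09 log2 units, and the mitochondrial Cars2 rose by 0.30 ± 0.11 log2 units (adjusted p = 0.037), a call lost without peroxide replicates 1 or 2 or vehicle replicates 1 or 2 or doxorubicin vehicle replicate 1 (adjusted p = 0.0503 to 0.144). The composite site of CHOP and ATF4, TGATGCAA, factors of the amino acid response, was in 2 of 30 windows of this list (6.67%) and in 0.692% of all. It was picked in the same way after the shares were seen and rests on 2 genes, and it was in 0.734% of rising and 0.778% of falling genes with a window. The stretches are shown with the site in capitals, where it lies on the opposite strand and so reads in reverse complement.
Aars (chr8:111033692-111033771, plus strand): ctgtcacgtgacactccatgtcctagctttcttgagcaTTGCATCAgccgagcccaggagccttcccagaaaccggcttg
Tars (chr15:11399659-11399738, minus strand): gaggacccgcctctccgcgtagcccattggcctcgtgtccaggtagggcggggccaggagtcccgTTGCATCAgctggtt
Aars, the alanyl synthetase named for this site, fell by 0.52 ± 0.09 log2 units (adjusted p = 0.000842), going from 457 ± 15.5 to 321 ± 44.8 CPM.

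Protein folding and mitochondrial gene expression followed the same direction. Of the CCT chaperonin and prefoldin genes, which fold actin and tubulin, 1 of 19 tested genes rose and 10 fell (median log2 difference -0.35). Cct8 fell by 1.35 ± 0.31 log2 units (adjusted p = 0.00363), going from 446 ± 97.8 to 181 ± 65.5 CPM. Cct6a fell by 1.52 ± 0.45 log2 units, is low in both libraries and stood at -0.92 (adjusted p = 0.0312) without peroxide replicate 2. The prefoldin subunit Pfdn5 rose by 0.58 ± 0.10 log2 units. Cct6a shares 15.4% and Pfdn5 17.9% of their sequence windows with transcripts from elsewhere. Of mitochondrial ribosomal proteins, 1 of 78 tested genes rose and 37 fell (median log2 difference -0.45), and 14 of the 78 are low in both libraries. Without peroxide replicate 2, 1 rose and 32 fell. Mrpl12 was at 95.1, 32.7 and 23.1 CPM in the vehicle libraries and 7.76, 6.55 and 11 CPM in the peroxide libraries. Vehicle replicate 1 was well above the other vehicle libraries, and Mrpl12 fell by 2.2 ± 0.61 log2 units (adjusted p = 0.0109). Mrpl58, which releases stalled mitochondrial ribosomes, fell by 1.99 ± 0.54 log2 units (adjusted p = 0.00981), is low in both libraries and stood at -1.6 (adjusted p = 0.0373). The ribosomal protein gene Mrpl24 rose by 0.47 ± 0.08 log2 units and shares 23.3% of its sequence windows with transcripts from elsewhere. Of the 15 genes encoded by the mitochondrial chromosome and tested, 11 fell and 0 rose (limma, median log2 difference -0.57). At an unadjusted p below 0.05, 1 rose, and with limma voom 0 rose. Without peroxide replicate 2, 1 rose and 8 fell. The chromosome took 1.26 to 1.40% of all reads in the peroxide libraries and 1.88 to 2.00% in the vehicle libraries. The ATP synthase subunits mt-Atp8 and mt-Atp6 fell by 0.88 ± 0.12 and 0.88 ± 0.10 log2 units, with mt-Atp6 going from 1739.7 ± 28.1 to 945 ± 67.2 CPM; 99.5% of the windows of mt-Atp6 are shared with other transcripts. For import, fusion and fission, 4 of 46 tested genes rose and 19 fell (median log2 difference -0.43), with a median of -0.20 without peroxide replicate 2. Dnajc19, a part of the import motor, fell by 1.85 ± 0.50 log2 units, is low in both libraries and stood at -1.38 (adjusted p = 0.0328). Prohibitin (Phb), a scaffold of the inner membrane, fell by 2.21 ± 0.66 log2 units (adjusted p = 0.0163); it is low in both libraries, shares 30.3% of its sequence windows with transcripts from elsewhere, stood at -1.65 (adjusted p = 0.0612) without peroxide replicate 2, and its call did not survive without peroxide replicate 2 or vehicle replicate 1 (adjusted p = 0.0612 to 0.0668). Tomm7, which steadies the import pore, rose by 0.43 ± 0.09 log2 units, and the fission adaptor Fis1 rose by 0.31 ± 0.08 log2 units.

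Autophagy and early secretory transport moved the other way. Of 50 tested autophagy genes 24 (48%) rose and 3 fell, with a median log2 difference of 0.42. Without peroxide replicate 2, 27 rose and 0 fell. Calcoco1, a receptor for autophagy of the endoplasmic reticulum, was at 23, 17 and 23.7 CPM in the vehicle libraries and 54.2, 64.8 and 48.6 CPM in the peroxide libraries and rose by 1.36 ± 0.16 log2 units (adjusted p = 2.98e-05). Of the falls, Tmem41b, a lipid scramblase, fell by 1.0 ± 0.31 log2 units (adjusted p = 0.0184), a call lost without peroxide replicate 2 or vehicle replicate 1 (adjusted p = 0.0658 to 0.0678). Tfe3, a transcription factor of lysosomal genes, fell by 0.36 ± 0.14 log2 units (adjusted p = 0.0453), a call lost without peroxide replicates 2 or 3 or vehicle replicates 1, 2 or 3 or doxorubicin replicate 3 or doxorubicin vehicle replicate 1 (adjusted p = 0.0595 to 0.112). Of the COPI and COPII transport genes, 25 of 66 tested genes rose and 3 fell (median log2 difference 0.22). The cargo receptor Tmed4 rose by 1.27 ± 0.09 log2 units (adjusted p = 5.49e-07), going from 104 ± 2.89 to 253 ± 26 CPM, and Ergic3, a protein that cycles between the endoplasmic reticulum and the Golgi, rose by 1.1 ± 0.10 log2 units from 201 ± 9.03 to 435 ± 67.4 CPM. Tango6 fell by 1.26 ± 0.17 log2 units. Tmed5 fell by 1.19 ± 0.38 log2 units (adjusted p = 0.021); it is low in both libraries, stood at -0.73 (adjusted p = 0.0622) without peroxide replicate 2, and its call did not survive without peroxide replicate 2 or vehicle replicates 1 or 2 (adjusted p = 0.0507 to 0.0631).

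In the cytoskeleton, 2 genes best known from neurons rose. Stmn2, a stathmin that binds tubulin, was at 1.14, 0.381 and 0.867 CPM in the vehicle libraries and 13.2, 15 and 12.8 CPM in the peroxide libraries and rose by 3.05 ± 0.17 log2 units (adjusted p = 1.24e-07). Tubb3, a beta tubulin used as a marker of neurons, was at 22.3, 23.7 and 24.5 CPM in the vehicle libraries and 129, 104 and 108 CPM in the peroxide libraries and rose by 2.22 ± 0.09 log2 units (adjusted p = 1.12e-08). By contrast Map2, a neuronal microtubule protein, fell by 1.78 ± 0.15 log2 units from 13.7 ± 1.87 to 3.35 ± 0.945 CPM. Stmn1, the stathmin of dividing cells, fell by 1.13 ± 0.07 log2 units from 284 ± 13.9 to 129.6 ± 1.08 CPM. Over the tubulins and microtubule-associated proteins, 6 of 43 tested genes rose and 13 fell (median log2 difference -0.12). Stmn1 shares 18.9% of its sequence windows with transcripts from elsewhere.

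Adhesion genes changed in both directions. Of the cadherins, catenins and protocadherins, 12 of 30 tested genes rose and 3 fell (median log2 difference 0.17); without peroxide replicate 2, 16 rose and 4 fell, with a median of 0.51. Fat4, a giant cadherin of tissue polarity, was at 2.1, 1.48 and 2.35 CPM in the vehicle libraries and 12.5, 10.2 and 9.36 CPM in the peroxide libraries and rose by 1.98 ± 0.16 log2 units (adjusted p = 1.87e-06). The clustered protocadherin Pcdhb9 rose by 1.68 ± 0.25 log2 units. N-cadherin (Cdh2), the classical cadherin of fibroblasts, fell by 0.79 ± 0.11 log2 units from 21.8 ± 0.435 to 12.2 ± 0.698 CPM, and the junction protein Pkp4 fell by 1.32 ± 0.15 log2 units. Of tetraspanins, membrane organisers, 8 of 19 tested genes rose and 2 fell (median log2 difference 0.31), with a median of 0.13 without peroxide replicate 2. Cd53, a tetraspanin best known from leukocytes, rose by 1.3 ± 0.11 log2 units from 16.3 ± 2.38 to 41.4 ± 3.48 CPM. Leukocyte markers, given above, summed higher in the peroxide libraries, though 12 of 16 were at 1 CPM or less in all 6 libraries. The part of leukocytes in the Cd53 value was not tested. Tspan7 rose by 0.97 ± 0.14 log2 units, Tspan14 fell by 1.08 ± 0.13 log2 units and Tspan12 fell by 0.33 ± 0.09 log2 units. In heparan and chondroitin sulphate synthesis, 14 of 46 tested genes rose and 8 fell (median log2 difference 0.08). The secreted sulphatases Sulf2 and Sulf1, which trim heparan sulphate and alter growth factor binding, both rose. Sulf2 was at 10.1, 11.3 and 14.8 CPM in the vehicle libraries and 83.2, 49.2 and 75.3 CPM in the peroxide libraries and rose by 2.41 ± 0.18 log2 units (adjusted p = 8.73e-07), and Sulf1 rose by 1.04 ± 0.10 log2 units from 54.4 ± 3.77 to 113 ± 5.47 CPM. The sulphotransferase Chst1 fell by 1.5 ± 0.14 log2 units. Glce, the epimerase of heparan sulphate, fell by 1.13 ± 0.33 log2 units (adjusted p = 0.0144), a call lost without vehicle replicate 1 (adjusted p = 0.0607).

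Transcription factors showed no shared direction. Of the mesenchymal patterning factors, 17 of 54 tested genes rose and 13 fell (median log2 difference 0.02). Zeb1, a repressor of epithelial genes, was at 29.2, 29.5 and 29 CPM in the vehicle libraries and 76.1, 78.3 and 93.7 CPM in the peroxide libraries and rose by 1.46 ± 0.10 log2 units (adjusted p = 3.78e-07). Maf, a leucine zipper factor, rose by 1.11 ± 0.14 log2 units. The homeobox factors Lhx9 and Dlx1 fell by 2.12 ± 0.23 and 1.3 ± 0.23 log2 units, with Lhx9 going from 6.88 ± 0.307 to 0.844 ± 0.452 CPM. Of nuclear receptors, 8 of 22 tested genes rose and 4 fell (median log2 difference 0.03). Pparg, the receptor that drives fat cell formation, was at 85.6, 92 and 79.2 CPM in the vehicle libraries and 29, 27.7 and 28.8 CPM in the peroxide libraries and fell by 1.55 ± 0.09 log2 units (adjusted p = 1.09e-07). Nr2f1, an orphan receptor of patterning, fell by 0.78 ± 0.15 log2 units. Rora, a receptor of the circadian clock, rose by 1.26 ± 0.12 log2 units from 7.71 ± 1.09 to 19.9 ± 2.67 CPM, and the thyroid hormone receptor Thrb rose by 1.31 ± 0.15 log2 units from 0.469 ± 0.151 to 2.63 ± 0.276 CPM. Of forkhead factors, 3 of 17 tested genes rose and 5 fell (median log2 difference -0.06). Foxo3, a factor restrained by insulin signalling, rose by 0.84 ± 0.08 log2 units from 33.3 ± 0.309 to 60.6 ± 6.47 CPM, and Foxn3 rose by 0.75 ± 0.07 log2 units. Foxs1 fell by 0.95 ± 0.14 log2 units and Foxk2 fell by 0.89 ± 0.07 log2 units. Of Kruppel-like and Sp factors, 3 of 17 tested genes rose and 4 fell (median log2 difference -0.18). Klf9, a target of glucocorticoid and thyroid hormones, rose by 0.80 ± 0.09 log2 units, Klf3 rose by 0.63 ± 0.08 log2 units and Klf15 fell by 0.61 ± 0.17 log2 units. Sp2 fell by 1.26 ± 0.36 log2 units (adjusted p = 0.0119), a call lost without vehicle replicate 1 (adjusted p = 0.052).

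Among lysine demethylases and acetyltransferases, which erase histone methylation and write histone acetylation, 13 of 42 tested genes rose and 6 fell (median log2 difference 0.04). Kdm5b, which removes methyl groups from lysine 4 of histone H3, was at 25, 22.7 and 23.6 CPM in the vehicle libraries and 65.5, 66.5 and 82 CPM in the peroxide libraries and rose by 1.54 ± 0.10 log2 units (adjusted p = 4.87e-07). Kdm7a rose by 1.43 ± 0.18 log2 units from 5.98 ± 1.8 to 17.5 ± 2.83 CPM. Hat1, which acetylates newly made histones, fell by 1.21 ± 0.08 log2 units from 151 ± 2.61 to 65 ± 4.17 CPM, and Kdm8 fell by 1.19 ± 0.20 log2 units.

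The series holds another treatment against which the peroxide response can be set. Doxorubicin and peroxide have separate vehicle groups, so treatment, day and experiment cannot be told apart. Effects differed between the treatments for 4461 of 13280 genes (33.6%) by a test of the difference (limma, adjusted p below 0.05). Of all 13280 tested genes, 6733 (50.7%) were called with peroxide and 6627 with doxorubicin. Of the genes called with peroxide, 59.4% were also called with doxorubicin. Of those called with doxorubicin, 60.3% were also called with peroxide. These shares are to be read against the wide calling among all tested genes. The direction was shared for 3520 of these 3998 genes. For the other 478 the effects were opposite and their difference was called, with 340 higher and 138 lower with peroxide, and 20 of the 478 are low in both libraries. Among the largest rises, Pamr1, Ecrg4, Lrrc15, Sbsn, Dapk1 and Bglap2 rose with both treatments, and their differences between treatments missed the threshold. On leaving out 1 of the 12 libraries at a time, the difference was called for Bglap2 without any 1 of 3 libraries (adjusted p = 0.0335 to 0.049) and for Lrrc15 without 1 (adjusted p = 0.0243). In log2 units, Pamr1 was at 5.11 ± 0.15 with peroxide and 5.56 ± 0.15 with doxorubicin (adjusted p of the difference = 0.112). Without the 2 libraries that stood apart the Pamr1 difference was called, at -0.67 (adjusted p = 0.0296). Other genes had a larger log2 rise with peroxide, but their vehicle levels also differed between the experiments. Gas7 was at 7.99 CPM in the day 6 vehicle, 50.6 in the day 7 vehicle, 164 with peroxide and 233 with doxorubicin. In the same order, Spon2 was at 9.51, 48.2, 118 and 93.6 CPM and Anpep at 5.66, 54.0, 68.4 and 84.1 CPM. The part of the vehicle levels in these differences was not tested. Gas7 stood at 4.21 ± 0.10 with peroxide and 2.18 ± 0.10 with doxorubicin (adjusted p of the difference = 1.14e-05), Spon2 at 3.5 ± 0.17 with peroxide and 0.96 ± 0.17 with doxorubicin (adjusted p of the difference = 6.61e-05) and Anpep at 3.38 ± 0.12 with peroxide and 0.63 ± 0.12 with doxorubicin (adjusted p of the difference = 3.76e-06). Several members of the lists also had a larger log2 rise with peroxide. Crabp2 stood at 2.87 ± 0.17 with peroxide and 0.20 ± 0.17 with doxorubicin (adjusted p of the difference = 5.01e-05), Stmn2 at 3.05 ± 0.17 with peroxide and 0.13 ± 0.17 with doxorubicin (adjusted p of the difference = 2.71e-05) and Adh1 at 1.85 ± 0.10 with peroxide and -0.10 ± 0.10 with doxorubicin (adjusted p of the difference = 9.72e-06). Rgs2 moved in opposite directions, at 1.47 ± 0.13 with peroxide and -1.76 ± 0.13 with doxorubicin (adjusted p of the difference = 3.31e-06). Sulf2 stood at 2.41 ± 0.18 with peroxide and 3.44 ± 0.18 with doxorubicin (adjusted p of the difference = 0.0109) and Apod at 3.28 ± 0.09 with peroxide and 5.18 ± 0.09 with doxorubicin (adjusted p of the difference = 9.72e-06), both rising more with doxorubicin. The Ptch1 fall was larger with peroxide, at -1.91 ± 0.17 with peroxide and -0.46 ± 0.17 with doxorubicin (adjusted p of the difference = 0.00187). Differences of genes that are low in both libraries rest on doxorubicin vehicle replicate 3 as well. For Id3 the effects were -3.45 ± 0.83 with peroxide and 1.26 ± 0.83 with doxorubicin (adjusted p of the difference = 0.0123), and without the 2 libraries the difference went from -4.71 to -2.85 log2 units (adjusted p = 0.00139).

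**Figure D5:**
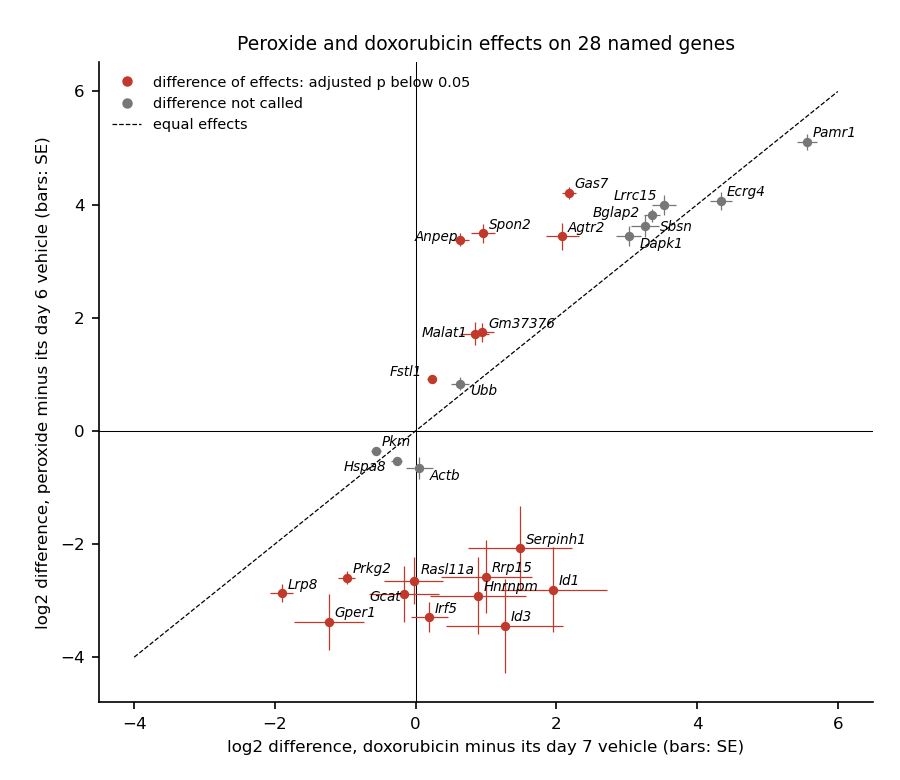
Log2 difference with peroxide against its day 6 vehicle (y axis) and with doxorubicin against its day 7 vehicle (x axis) for 28 named genes, with bars for SE and a dashed line where effects are equal. Red genes have a called difference between the effects, among them Gas7, Spon2 and Anpep above the line and Id3 and Irf5 below it, and grey genes such as Pamr1 and Ecrg4 do not.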

How the data were processed

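RNA-seq libraries of fibroblasts were compared as 3 peroxide against 3 vehicle libraries. The authors deposited 1 table of CPM values per Ensembl gene; bcl2fastq, DRAGEN and mm10 are listed in the submitters' processing notes without versions. No source used here gives how reads were counted or on which annotation. The values stepped in hundredths of a read, so whole reads were not recovered and no count model was used. Of 55774 lines, 287 repeated lines with identical values were removed, leaving 55487 genes, of which 55227 (99.5%) were matched by identifier to GENCODE M21 (mm10) for positions. Depth was estimated from the value of 1 read.

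CPM plus a pseudocount of 1 was log2 transformed. Genes reaching 1 CPM in 3 or more of 12 libraries were fitted in 1 model of all 4 groups with limma 3.58.1 (trend, 8 residual degrees of freedom, R 4.3.3), with Benjamini-Hochberg adjustment over all 13280 tested genes and a threshold of 0.05. The difference between the peroxide and doxorubicin effects was tested in the same model. On simulated data for the peroxide comparison (13280 genes), 89% of 100 genes changed by 1 log2 unit and 98% of 100 changed by 2 were recovered. Of the calls, 6.03% were false. The simulated reads had the same relative spread for all genes and libraries, with no library standing apart. Far fewer genes were changed than were called in the data. These rates hold for that setting and were not measured for the spread of these libraries.

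The members and the 40 lists were chosen with earlier results of these data known. Genes were named by rule. The first were the 10 largest rises and 10 largest falls outside the usual lists. These had at least 5 CPM in the higher group, groups that did not overlap and an established symbol. The next were the 4 largest gains and 4 largest losses in mean CPM among called genes outside the usual lists. In each list, up to 2 rises and 2 falls were named. Shared windows are 50-base stretches of a gene's transcripts that also occur in transcripts of other genes. Alternatives were other pseudocounts, filters, scalings and models, each day 6 library left out, and 3 chosen after seeing the data, namely leaving out each library of the doxorubicin experiment, both libraries that stood apart, and the genes low in both. A few named genes and 1 list are not reported here.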

Additional observations from a re-analysis of the deposited data

Results flagged for a closer look

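For 18 of the genes with the largest differences or the largest gains and losses of CPM, the peroxide effect and the doxorubicin effect differed by a test of the difference (limma, adjusted over all tested genes). That was so for 33.6% of all tested genes. Treatment, day and experiment cannot be told apart here. The vehicle groups differed too, in both directions. Mean CPM in the day 6 and day 7 vehicles was 29.3 and 4.36 for Irf5, 285 and 116 for Prkg2, and 7.99 and 50.6 for Gas7. With peroxide and doxorubicin it was 2.00 and 5.31 for Irf5, 46.8 and 58.4 for Prkg2, and 164 and 233 for Gas7. The part of the vehicle levels in the differences was not tested. Values are the peroxide effect minus the doxorubicin effect in log2 units, followed by the value without peroxide replicate 2 and doxorubicin vehicle replicate 3.

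Peroxide gave the larger value for 7 genes. The difference was 2.03 (adjusted p = 1.14e-05; 2.0 with adjusted p = 7.24e-05 without these 2 libraries) for Gas7 and 2.53 (adjusted p = 6.61e-05; 2.27 with adjusted p = 0.000129 without these 2 libraries) for Spon2. For the peptidase Anpep it was 2.74 (adjusted p = 3.76e-06; 2.57 with adjusted p = 2.02e-05 without these 2 libraries), and for the angiotensin receptor Agtr2 1.36 (adjusted p = 0.0112; 1.15 with adjusted p = 0.00381 without these 2 libraries). For the secreted Fstl1 it was 0.69 (adjusted p = 0.000572; 0.62 with adjusted p = 0.00162 without these 2 libraries). For Malat1 it was 0.88 (adjusted p = 0.0358; 1.02 with adjusted p = 0.00615 without these 2 libraries), and for the overlapping model Gm37376 0.79 (adjusted p = 0.0272; 0.87 with adjusted p = 0.00835 without these 2 libraries).

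Peroxide gave the smaller value for 11 genes. For the interferon regulatory factor Irf5 the difference was -3.49 (adjusted p = 0.000134; -3.36 with adjusted p = 0.000732 without these 2 libraries). For the receptor Lrp8 it was -0.96 (adjusted p = 0.00926; -0.85 with adjusted p = 0.0335 without these 2 libraries), and for the kinase Prkg2 -1.62 (adjusted p = 0.000133; -1.43 with adjusted p = 0.000174 without these 2 libraries). For Id1 it was -4.77 (adjusted p = 0.00746; -4.3 with adjusted p = 0.026 without these 2 libraries).

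The other 7 of these 11 are low in both libraries that stood apart, 1 of which is a doxorubicin vehicle library. For Id3 the difference was -4.71 (adjusted p = 0.0123; -2.85 with adjusted p = 0.00139 without these 2 libraries). For Hnrnpm it was -3.8 (adjusted p = 0.013; -2.58 with adjusted p = 0.027 without these 2 libraries), and for Rrp15 -3.58 (adjusted p = 0.0136; -2.13 with adjusted p = 0.00147 without these 2 libraries). For Gcat it was -2.72 (adjusted p = 0.0146; -1.74 with adjusted p = 0.00533 without these 2 libraries), and for Rasl11a -2.62 (adjusted p = 0.00778; -1.91 with adjusted p = 0.0164 without these 2 libraries). For the collagen chaperone Serpinh1 it was -3.55 (adjusted p = 0.0248; -1.92 with adjusted p = 0.0101 without these 2 libraries). For Gper1 it was -2.15 (adjusted p = 0.0376; -1.29 with adjusted p = 0.0566 without these 2 libraries), which no longer passed the threshold. On leaving out 1 of the 12 libraries at a time, the difference missed the threshold for Malat1 without any 1 of 8 libraries (adjusted p = 0.0541 to 0.0837), for Gm37376 without any 1 of 6 (0.0508 to 0.0669), for Gper1 without any 1 of 6 (0.0639 to 0.0879) and for Serpinh1 without any 1 of 4 (0.0535 to 0.0574). The other 14 kept it.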

How the results depend on the processing

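The counts of changed, rising and falling genes, of genes moving by at least 1 log2 unit and of genes whose effect differed from doxorubicin stayed within 1.5 times the reported counts under every alternative run. Leaving out each of the 12 libraries in turn gave 5701 to 6967 changed genes, 3138 to 3685 rising, 2508 to 3282 falling, 1648 to 1996 by at least 1 log2 unit and 3148 to 5028 differing from doxorubicin. With both libraries that stood apart left out, 6590 genes changed, and with the 458 genes low in both left out, 6670. Same-numbered peroxide and vehicle libraries did not deviate together (correlations 0.14, 0.03 and -0.24), so the numbers were not taken to pair the samples; with a replicate block 6091 genes changed, 3324 rose, 2767 fell, 1808 moved by at least 1 log2 unit and 3272 differed from doxorubicin, and 6019 of the block's calls were also made without it. Of the 178 named genes 0 reversed in any of 25 settings, and 156 kept their call in every setting that tested them. Genes that a setting did not test were not counted as lost, such as those low in both libraries where these were left out. Of the 22 others, 19 lost their call when 1 library was left out, most often vehicle replicate 1 (17 genes) or peroxide replicate 2 (16 genes). Leaving out a library of the doxorubicin experiment, which bears on the shared spread only, lost the calls of Mdh2, Tfe3 or Cars2 and of no other named gene. With no filter 9 lost it, with the replicate block 6, and with only the 6 day 6 libraries 5, Actb among them. Some small counts in lists moved by over 1.5 times: falls in xenobiotic metabolism went from 5 to 3 without peroxide replicate 1 or vehicle replicates 1 or 2, rises among splicing factors from 7 to 4 without vehicle replicates 1 or 2, falls in sulphate synthesis from 8 to 5 without replicate 1 of either group, falls among patterning factors from 13 to 8 without vehicle replicate 1, falls among lysine enzymes from 6 to 3 without vehicle replicate 2, and falls in lipid efflux from 8 to 5 without peroxide replicate 2. The median of 32 of the 40 lists kept its sign in all settings, and the other 8, all near 0, kept it under both other scalings. Depth limits genes near the floor of 3 reads, such as Agtr2 in the vehicle libraries.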

Other observations

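Transcript classes outside protein-coding genes moved unevenly. Of 215 tested long intergenic RNA genes 93 (43.3%) rose and 29 (13.5%) fell, with a median log2 difference of 0.28, beside 28.2% and 24.2% of 11741 protein-coding genes. Their share of all reads was 0.674 to 0.936% in the peroxide libraries and 0.385 to 0.425% in the vehicle libraries, and Malat1 is the most abundant of them. Of 227 tested antisense genes 72 (31.7%) rose and 19 (8.37%) fell. These shares are near the 30.3% and 10.4% of the lowest 2656 tested genes by mean CPM, and the part of level was not tested. Since strand use in the counting is not given, reads of an antisense gene and its partner cannot be told apart. Of 616 processed pseudogenes 32 (5.19%) rose and 149 (24.2%) fell, and reads of these copies cannot be separated from those of their parent genes with certainty.

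The balance of rises and falls differed with expression level. With the tested genes ordered by mean CPM, 804 of the lowest 2656 (30.3%) rose and 276 (10.4%) fell. Of the highest 2656, 795 (29.9%) rose and 864 (32.5%) fell. Log2 differences of the lowest genes are understated by the pseudocount, in both directions.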
